A study of Mus musculus with 2 samples.

Results

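The pyruvate dehydrogenase complex and the enzymes that switch it were compared between 1 pool of fast and 1 pool of slow mouse skeletal muscle fibres. The set held 10 genes of the 23458 that had a matched feature on the array: the enzyme core (Pdha1, Pdhb, Dlat and Pdhx), the kinases (Pdk1, Pdk2, Pdk3 and Pdk4) and the phosphatases (Pdp1 and Pdp2). They were chosen by name, and their features were found through the RefSeq accession printed for each feature. Together they had 16 probes, and all 16 were well above background on both arrays. Pdk1 had 4 probes, Dlat, Pdp1 and Pdp2 had several as well, and the remaining 6 genes had 1 probe each.

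Both pools came from the same 8 male mice aged 6 to 8 weeks, heterozygous for a GFP-Myh7 allele (G/+), in which fibres that make slow myosin carry green fluorescence. The fast pool held 4447 fibres without GFP from the extensor digitorum longus (EDL), and the slow pool held 1659 fibres with GFP from the soleus, per the treatment protocol and source names. The tissue field of the slow sample names the EDL as well, and the soleus was used here. All fibres of a pool were extracted together, so there was 1 array per group, no replicate check and no test between the groups. Muscle of origin and fibre type cannot be told apart, and neither can fewer cells of a type and less RNA per cell.

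Pyruvate dehydrogenase turns pyruvate into acetyl-CoA inside mitochondria and so commits carbon from glucose to the citric acid cycle. Its kinases phosphorylate the alpha subunit and switch the complex off, and its phosphatases remove the phosphate and switch it on again. In muscle this switch is known to set how much glucose is burned against fat, and Pdk4 is known to rise in fasting, a state in which fat is the main fuel.

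The upstream sequences of 3 kinases are shown because Pdk4 and Pdk1 were among the kinases higher in the slow pool while Pdk2 was not. RefSeq windows of GRCm38.p6 were found for 9 of the 10 genes. Each line gives the 250 bases before the annotated start, read 5′ to 3′ on the strand of the gene. Capitals mark CCAAT box matches, which read ATTGG here because they lie on the opposite strand, and GC box matches (GGGCGG).
Pdk4, chr6:5496279-5496528, minus strand: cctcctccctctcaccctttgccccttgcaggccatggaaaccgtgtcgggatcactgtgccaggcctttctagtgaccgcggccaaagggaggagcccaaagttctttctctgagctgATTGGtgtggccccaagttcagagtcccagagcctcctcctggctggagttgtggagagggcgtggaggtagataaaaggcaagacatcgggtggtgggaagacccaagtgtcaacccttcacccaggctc
Pdk1, chr2:71872974-71873223, plus strand: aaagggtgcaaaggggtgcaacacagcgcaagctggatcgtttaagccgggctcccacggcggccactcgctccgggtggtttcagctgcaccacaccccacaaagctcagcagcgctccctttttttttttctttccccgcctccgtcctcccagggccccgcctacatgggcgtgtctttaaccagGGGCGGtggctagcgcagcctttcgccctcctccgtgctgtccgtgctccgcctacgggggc
Pdk2, chr11:95041372-95041621, minus strand: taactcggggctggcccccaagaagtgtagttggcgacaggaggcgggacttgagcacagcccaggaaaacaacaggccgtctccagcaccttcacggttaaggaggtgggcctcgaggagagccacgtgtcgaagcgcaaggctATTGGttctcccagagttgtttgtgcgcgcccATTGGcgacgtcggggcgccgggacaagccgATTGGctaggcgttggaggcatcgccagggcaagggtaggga

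The Pdk4 sequence held 1 CCAAT match, 131 bases before the start, and was 58.8% G and C. The Pdk2 sequence held 3 such matches, 105, 73 and 42 bases before the start, at 62.4% G and C. The Pdk1 sequence held no CCAAT match and 1 GC box, 62 bases before the start, at 64% G and C. Pdk1 and Pdk2 each have another annotated start, whose window is not shown. Those windows held no CCAAT match and no GC box, at 38.4% (Pdk1) and 58.8% (Pdk2) G and C. Pdk3, also higher in the slow pool, had a CCAAT match 120 bases and a GC box 223 bases before its start. The shown sequences therefore do not set the higher kinases apart from Pdk2. Across all windows the median was 52.4% G and C before the start. Both strands of every 300-base window (250 bases before and 50 after the start) were also searched for AGGTCA, the half-site of PPAR, RXR and ERR nuclear receptors, and for GTAAACA, a site of FOXO factors. Neither set of letters occurred in any of the 11 windows of the 9 genes, against 16.3% and 3.65% of all 32851 windows, which says only that these letters are not in these windows. The CCAAT box, the GC box and the TATA box (TATAAA) were searched after that result was seen. They occurred in 37.4%, 35.7% and 13.6% of all windows, and in 6, 6 and 0 of the 11, and 11 windows are too few to compare shares.

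Levels are given as the processed signal and as its log2 minus the 75th percentile of the array. A difference is slow minus fast on that log2 scale, and the error beside it is the scanner software's own error of the difference, which leaves out variation between animals and between labelling reactions. Each gene is given by its brightest probe. Probes differ in how strongly they bind, so a higher level of one gene was not read as more RNA than of another. Only differences between the pools were compared in that way. The summed marker levels given below add probes of unlike binding, so a share of a sum is a share of signal. The slow-fibre myosin Myh7 was 270-fold higher in the slow pool and Myh4, the myosin of the fastest fibres, 2981-fold higher in the fast pool. The 5 slow-fibre and 5 fast-fibre markers each followed the label of their pool. Of all non-control spots, 52.3% on the fast and 50.9% on the slow array were well above background, and 0 were saturated.

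The enzyme core lay close together in the 2 pools. Pdha1, the alpha subunit of the pyruvate dehydrogenase component and the target of the kinases, read 10885 in the fast pool against 11962 in the slow pool, at log2 levels of 5.90 and 5.93. The difference was 0.03 ± 0.20. Pdhb, the beta subunit of the same component, read 31421 and 33671, with a log2 difference of -0.0017 ± 0.20. For both subunits the pools differed by less than the software error, and 95.8% and 99.8% of the 12855 genes measured on both arrays lay at least as far from 0.

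Dlat, the acetyltransferase that forms the inner core of the complex, read 2652.2 in the fast pool against 2169.4 in the slow pool, a log2 difference of -0.39 ± 0.20 or 1.312-fold. Its other probe read 908 and 964.5, a log2 difference of -0.01. The probes of Dlat thus gave a difference near 0 in one case and a modestly lower slow signal in the other. Pdhx, the protein that anchors dihydrolipoamide dehydrogenase to that core, read 1688.2 and 2152.2, a log2 difference of 0.25 ± 0.20 or 1.188-fold higher in the slow pool. The 4 core genes ran from -0.39 to 0.25 with a median of 0.02, beside a median of 0.05 and an SD of 1.08 over all genes measured on both arrays.

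**Figure D1:**
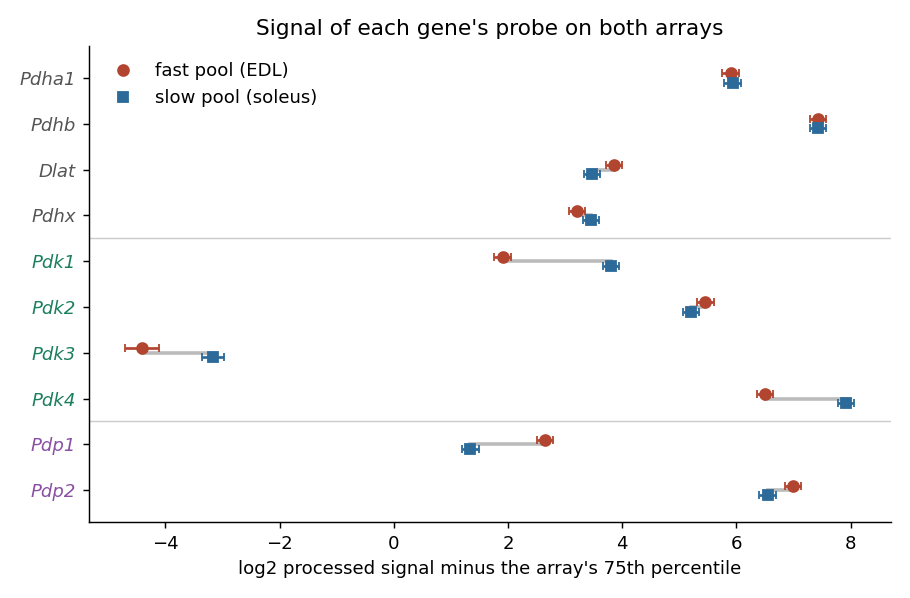
Level of each gene's brightest probe on both arrays, as log2 processed signal minus the array's 75th percentile (horizontal axis), with circles for the fast pool, squares for the slow pool and bars for the software error. Core genes nearly overlap, Pdk1, Pdk3 and Pdk4 sit further right in the slow pool (Pdk4 at 7.91 against 6.50), and Pdp1 sits further left (1.34 against 2.65).

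Of the 4 kinases, 3 were at least 2-fold higher in the slow pool and 0 were 2-fold higher in the fast pool. Over the 14647 genes that either array measured, the same 2-fold size was reached by 10.6% toward the slow pool and by 14.2% toward the fast pool. With a median of 1.32, the kinases ran from -0.26 to 1.89.

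Pdk4, the kinase known for its induction by fasting and by fatty acids, read 16571 in the fast pool and 47266 in the slow pool. The log2 difference was 1.41 ± 0.20, or 2.659-fold, and 5.38% of the genes measured on both arrays had a higher difference. Pdk4 has 1 probe, so no second reading of this difference exists on these arrays.

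Pdk1, the kinase known as a hypoxia-responsive gene, read 684.6 in the fast pool against 2728.2 in the slow pool, a log2 difference of 1.89 ± 0.20 or 3.715-fold. It was the largest difference in the set, and 2.98% of genes had a higher one. The next brightest probe of Pdk1 read 159.3 and 548.7, a log2 difference of 1.68, and the dimmest read 14.72 and 60.01, a log2 difference of 1.93. The fourth read 78.6 and 61.49, a log2 difference of -0.46. So 3 of the 4 probes, all printed with 1 accession, were higher in the slow pool and 1 was lower.

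Pdk3, a kinase known mainly from testis and brain, read 8.6205 in the fast pool against 21.823 in the slow pool, a log2 difference of 1.24 ± 0.36 or 2.36-fold. It was the dimmest gene of the set: the lowest signals called well above background were 7.21 on the fast and 8.81 on the slow array. Normexp, a background correction, was run with an offset of 50 added to every signal. With it the Pdk3 difference was 0.32 with the 75th percentile and 0.39 with quantile normalization, so its 2-fold call was lost there. That offset exceeds both Pdk3 signals, so a smaller difference follows by arithmetic. Over all genes, normexp with quantile normalization put 5.24% past 2-fold in the slow and 6.83% in the fast pool. Quantile normalization without normexp gave 10.8% and 14.2%.

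Pdk2, a broadly expressed kinase, read 8012.1 in the fast pool against 7200.6 in the slow pool, a log2 difference of -0.26 ± 0.20 or 1.194-fold. It was the only kinase with a lower slow signal. Relative to Pdk2, the Pdk4 signal was 3.17-fold higher in the slow pool (a log2 shift of 1.67 ± 0.29), and the Pdk1 signal 4.43-fold higher (2.15 ± 0.29). A scaling by 1 factor per array cannot move such ratios within an array, and some of the 8 other scalings and background corrections were of that kind. Over the 8, the shifts ran from 1.63 to 1.71 for Pdk4 and from 2.02 to 2.26 for Pdk1. These ranges came from quantile normalization, loess and normexp alone. For Pdk3 against Pdk2 the shift was 1.49 ± 0.41 and ran from 0.57 to 1.66.

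**Figure D2:**
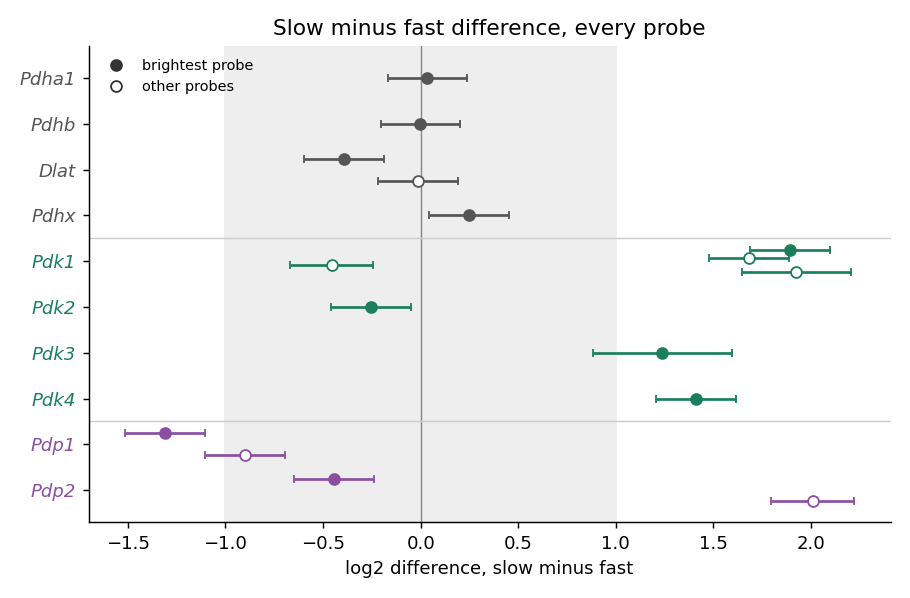
Slow minus fast log2 difference of all 16 probes, with filled circles for the brightest probe of a gene, open circles for its other probes and bars for the software error; the grey band is less than 2-fold. 1 Pdk1 probe lies at -0.46 while the other 3 lie between 1.68 and 1.93, and the 2 Pdp2 probes lie on opposite sides of 0.

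Both phosphatases had a lower slow signal by their brightest probes. Pdp1, the calcium-activated catalytic subunit known from muscle, read 1147.2 in the fast pool against 496.12 in the slow pool, a log2 difference of -1.31 ± 0.20 or 2.481-fold higher in the fast pool. A lower difference was found for 8.85% of genes. Its other probe, printed with another transcript's accession, read 427.7 and 245.6, a log2 difference of -0.90. Both probes of Pdp1 were therefore lower in the slow pool, 1 of them past 2-fold.

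Pdp2, the catalytic subunit known for its response to insulin, read 23153 in the fast pool against 18278 in the slow pool, a log2 difference of -0.44 ± 0.20 or 1.359-fold. Its other probe was far dimmer, at 39.87 and 172, and went the opposite way with a log2 difference of 2.01. The direction of Pdp2 thus depended on the probe. Of the 4465 genes with several probes measured on both arrays, 8.58% had probes whose differences were at least 2-fold apart from each other, and 5.24% had such probes on opposite sides of 0, as Pdk1 and Pdp2 did.

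Endothelial, fibroblast and erythrocyte markers were also mostly lower in the slow pool, as Pdp1 was, while other marker lists were split. The shares of all genes past 2-fold to compare with are again 14.2% toward the fast and 10.6% toward the slow pool. The fast pool was higher by 2-fold or more for 9 of 11 endothelial markers, with summed levels of 24.89 and 6.249 times the 75th percentile signal. The same was true of 9 of 11 fibroblast markers (summed 156.9 and 38.78) and of all 5 measured erythrocyte markers of 6 listed (92.97 and 34.66). For immune markers 3 of the 5 measured of 9 were higher in the fast pool (29.74 and 20.27), and Ptprc was in neither pool well above background. Of 7 adipocyte markers 3 were measured, 1 of them 2-fold higher in the fast pool (18.39 and 8.154), and Adipoq was in neither pool well above background. Smooth muscle and pericyte markers were split, 2 of 6 higher in the fast pool against 1 in the slow pool (776.8 and 704.6), as were Schwann cell markers, 4 and 2 of 7 (9.218 and 19.39), and tendon markers, 2 and 1 of 3 (7.603 and 19.47). Single genes made up much of some sums: Acta2 98.4% and 99.1% of the smooth muscle sum in the fast and slow pools, Pmp22 48.5% and 90% of the Schwann cell sum, Scx 59.4% and 95.9% of the tendon sum and Fabp4 98.2% and 96.3% of the adipocyte sum. Likewise Itgam made up 46.5% and 79.6% of the immune sum, and Vcam1 90.1% and 64.6% of the satellite cell sum. Of 4 satellite cell markers 2 were measured, 1 of them higher in the fast pool (0.7224 and 0.3068). Their part in the Pdp1 difference was not tested.

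Set beside the core, the regulators had a wider spread but no shared direction. The 6 kinases and phosphatases ran from -1.31 to 1.89, a range of 3.20 with an SD of 1.27 over genes, and the 4 core genes covered a range of 0.64 with an SD of 0.27. Over all genes measured on both arrays the SD was 1.08. The SD of the regulators was thus near that over all genes, and that of the core was smaller. The SD over all genes covers a range from -11.54 to 9.81, while 10014 of the 12855 genes lay within 2-fold. A narrow range was also not particular to the core: the genes of pyruvate entry, read below, ran from -0.16 to 0.22. The ranges also compare 6 genes with 4. Of the regulators 4 were at least 2-fold apart, 3 higher in the slow and 1 in the fast pool, and of the core 0. Of all genes, 10.6% were 2-fold higher in the slow and 14.2% in the fast pool. The 4 core genes are too few to set their 0 against those shares. A 1.5-fold rule gave the same 3 and 1, against 21% and 23.1% of all genes, and a 3-fold rule left Pdk1 alone, against 5.2% and 7.23%. The median of the regulators was 0.49, which is 0.47 above that of the core. Without Pdk3, an alternative added after seeing the data, the gap was -0.27. With the median or the mean over a gene's probes it was 0.99, with Pdp2 at 0.78. The gap thus depended on Pdk3 and on the probe rule. The scanner values therefore gave no shared direction for the regulators as a group.

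**Figure D3:**
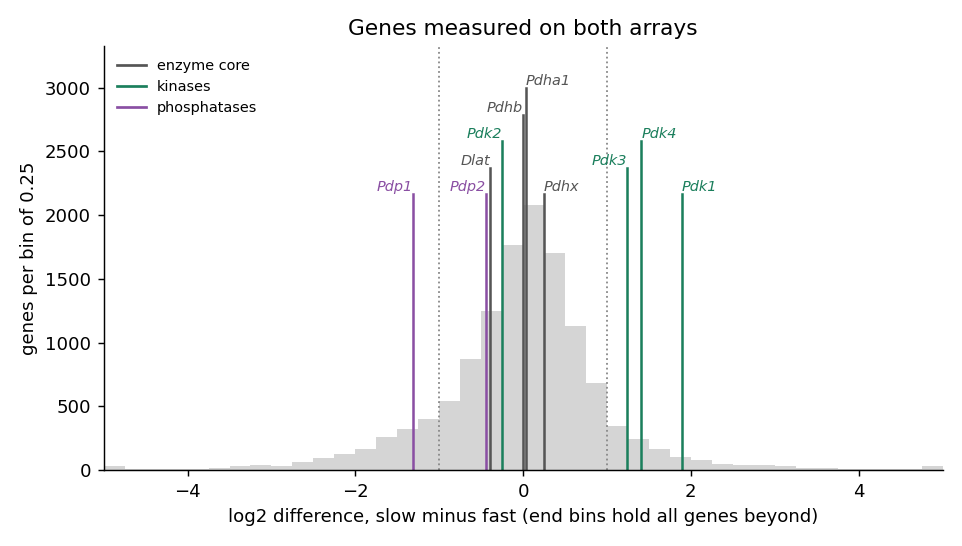
Histogram of the slow minus fast log2 difference of the 12855 genes measured on both arrays (bars, genes per bin), with a vertical line for each gene of the set and dotted lines at 2-fold. Core genes, Pdk2 and Pdp2 stand within the dotted lines, Pdk1, Pdk3 and Pdk4 to the right and Pdp1 to the left.

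The kinases that were higher and the phosphatase that was lower in the slow pool can be set against each other as ratios. The ratio of the Pdk1 to the Pdp1 signal was 9.21-fold higher in the slow pool than in the fast pool (a log2 shift of 3.20 ± 0.29, from 2.95 to 3.22 over 8 other scalings and background corrections). For Pdk4 against Pdp1 it was 6.6-fold higher (2.72 ± 0.29, from 2.53 to 2.72). Pdk1 and Pdp1 were the highest and the lowest of the regulators and were paired after their values were seen. Their shift therefore restates the range of the regulators. These ratios rest on the brightest probes. The other Pdk1 probes were at 1.68, 1.93 and -0.46, and the other Pdp1 probe was at -0.90. Scalings by 1 factor per array could not move these ratios. Against Pdp2 the Pdk4 shift was 1.85 ± 0.29, by the brighter Pdp2 probe. Relative to Pdha1, whose protein both kinds of enzyme act on, Pdk4 was shifted by 1.38 ± 0.29 and Pdp1 by -1.35 ± 0.29, while Pdk2 was shifted by -0.29 ± 0.29.

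Scalings by 1 factor per array, spike-in controls among them, moved every gene by the same amount, whereas quantile normalization, loess and normexp moved genes by unequal amounts. Pdk1 ran from 1.73 to 2.29 and Pdk4 from 1.23 to 1.81 over the 8 alternatives, and both were past 2-fold in all 8. Pdk3 was past 2-fold in 6 of 8 and Pdp1 in 7 of 8, the exception for Pdp1 being a scaling to spike-in controls, RNAs added in known amounts, which gave -0.91. That scaling added 0.40 to every log2 difference and put 20.4% of all genes past 2-fold in the slow and 9.17% in the fast pool. Under it the core genes were at 0.43 (Pdha1), 0.40 (Pdhb), 0.01 (Dlat) and 0.65 (Pdhx), and Pdk2 was at 0.14, so the signs of Pdhb, Dlat and Pdk2 turned. Pdha1 was below 0 in 4 of the 8 alternatives, with its lowest value, -0.12, under loess.

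**Figure D4:**
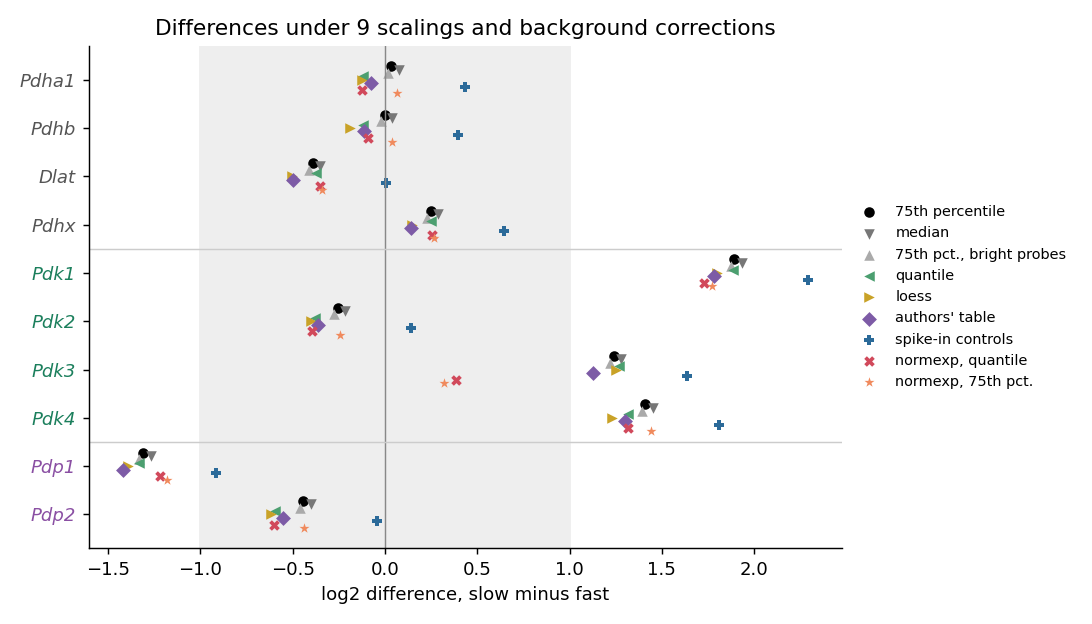
Slow minus fast log2 difference of each gene under the 75th percentile scaling and 8 alternatives, 1 symbol per setting; the grey band is less than 2-fold. Pdk1 and Pdk4 lie right of the band in every setting, Pdk3 enters it with both normexp settings (0.32 and 0.39), and Pdp1 enters it with spike-in controls (-0.91).

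Genes that share the pathway were read from lists chosen with earlier results of these data known. Of the other subunits, Dld, the dehydrogenase that the complex shares with related enzymes, read 4122 and 4771, a log2 difference of 0.11, and 0 of the 2 measured genes of 3 were 2-fold apart. Pyruvate entry was also near equal: the 3 measured genes had a median of 0.14, and Mpc1, a subunit of the mitochondrial pyruvate carrier, was the farthest from 0 at 0.22. Of the users of acetyl-CoA, Crat, which passes acetyl groups to carnitine, was the farther from 0 at 0.38, and 0 of 2 were 2-fold apart. Lists this short cannot be set against the 10.6% and 14.2% of all genes that were 2-fold higher in the slow and fast pools.

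The related 2-oxo acid dehydrogenases with their own kinase and phosphatase offer a parallel set. Of 8 listed genes 7 were measured, 0 were 2-fold apart and the median was 0.01. Of all genes, 10.6% were 2-fold higher in the slow and 14.2% in the fast pool, so 0 of 7 is no result about the list. Bckdk, the kinase that switches off branched-chain keto acid dehydrogenase, was the farthest from 0: it read 3545 and 2033, a log2 difference of -0.90, from -1.02 to -0.51 over the alternatives. Its signal was thus lower in the slow pool, as was that of Pdk2, and those of Pdk1, Pdk3 and Pdk4 were higher. Its phosphatase Ppm1k, chosen after its values were seen, was at -0.11, with another of its probes at 0.46.

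Of 12 transcription factors and coactivators known to act on Pdk genes, 2 were 2-fold higher in the slow pool (10.6% of all genes were) and 0 in the fast pool (14.2% of all genes), and the median of the list was -0.23. That share is near the background, so the count is no result about the list. Esrrg, an orphan nuclear receptor of oxidative tissues, read 237.8 and 3656, a log2 difference of 3.84. Ppara, the nuclear receptor that senses fatty acids, read 572.6 and 3829, a log2 difference of 2.64 or 6.23-fold, from 2.50 to 3.04 over the alternatives. The other 10 lay within 2-fold, 3 of them above 0 and 7 below. Esrra and Nr3c1, named after their values were seen, were at 0.60 and 0.38 and above 0 in all 8 alternatives.

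Of 12 PPAR target genes other than Pdk4, 8 were at least 2-fold higher in the slow pool and 1 in the fast pool, against 10.6% and 14.2% of all genes. This list too was chosen with earlier results of these data known, so the count is not independent evidence about PPAR targets. Whether PPAR receptors act on these genes in either pool was not tested. The 11 measured on both arrays ran from -1.55 to 5.02, with a median of 1.43. Acot1, an acyl-CoA thioesterase of the cytosol, read 35.24 and 1225, a log2 difference of 5.02, and 3.62 at its lowest over the alternatives. Its mitochondrial relative Acot2 read 385.4 and 2418, a log2 difference of 2.55; the genes are close copies, and probes of one may bind RNA of the other. Angptl4, a secreted inhibitor of lipoprotein lipase, read 800.2 and 7902, a log2 difference of 3.20. Hadha, a subunit of the mitochondrial trifunctional protein of fatty acid oxidation, read 923.4 and 2944, a log2 difference of 1.57. In the other direction, Cpt1a, the liver-type carnitine palmitoyltransferase, read 55.86 and 20.52, a log2 difference of -1.55 that shrank to -0.59 in one alternative.

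**Figure D5:**
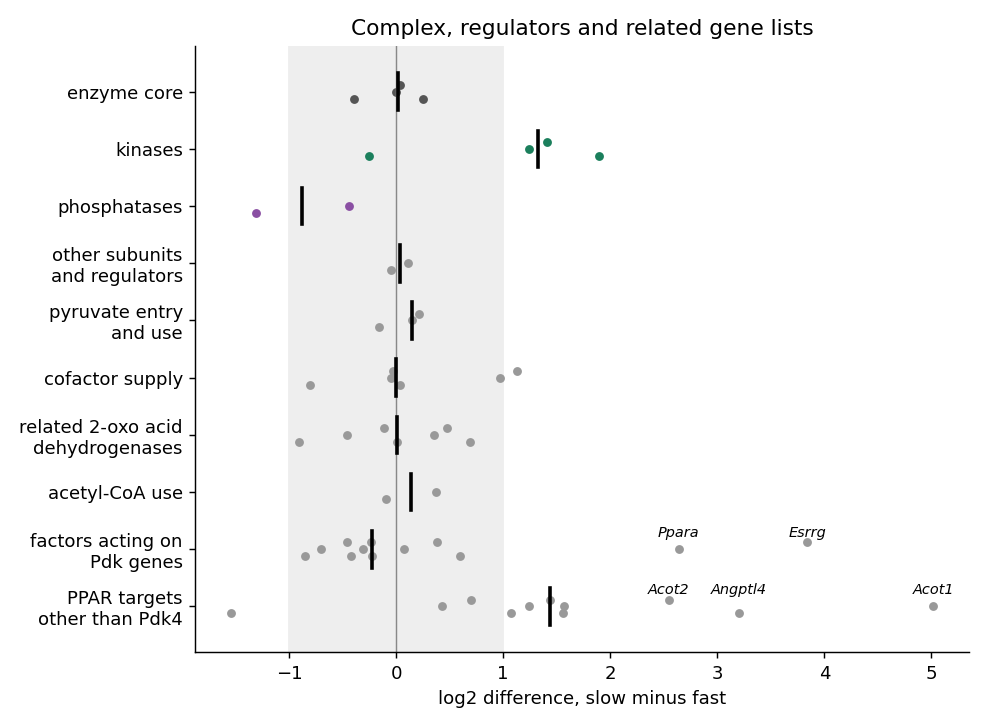
Slow minus fast log2 difference of every gene measured on both arrays in the core, the kinases, the phosphatases and 7 related lists (points, spread vertically for legibility), with a black line at each median and a grey band for less than 2-fold. All points of the core and of the dehydrogenase, pyruvate and acetyl-CoA lists lie in the band, and the PPAR targets have their median at 1.43.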

How the data were processed

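Pooled fibre RNA was measured on 2 Agilent 1-colour arrays (Cy3; 0.1 µg of RNA per labelling reaction, as the labels' protocols state). Per the file headers, the deposited intensities are on a linear scale, had their background subtracted array by array, and were not normalized between arrays. The scanner software was Agilent Feature Extraction 12.0.3.1, a version taken from the submitters' processing notes. The deposited files also give the software error of each intensity, median spot and background intensities, and 0 or 1 flags. In the value table deposited by the authors, intensities are linear and equal the processed ones times 2.83 (fast) and 2.45 (slow), with medians of 30.1 and 27.12 and no log or centring, and what these factors scale to stays unknown.

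Control spots and 159 flagged spots were removed, and 56596 probes were left. Each log2 intensity was reduced by the array's 75th percentile over non-control spots. Accessions matched 33763 probes (59.7%) to 23458 genes of a RefSeq table of GRCm38.p6, from which gene names alone were taken, since the array's design names mm9. A gene took its brightest probe detected well above background by 1 or both arrays, and a gene so detected by 1 array alone counted by its bound. Promoter windows came from RefSeq, GRCm38.p6.

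The named genes are all 10 of the set with every probe, and of each further list up to 4 per direction past 2-fold or, with none, the farthest from 0. Some results under this rule are not reported here. The members and lists were chosen with earlier results of these data known. With 1 array per group no test was made and a 2-fold size rule was used. Precision is limited by the number of arrays. The software error of a difference had a median of 0.21, and 288 probes printed repeatedly had a median SD of the difference of 0.05 between spots. Alternatives changed scaling, background correction, source of values, probe rule, accession types, dim-probe filter and size rule. The calculation was tested on simulated data. Python 3.11.15 (numpy 2.4.6, pandas 2.3.3), R 4.3.3 and limma 3.58.1 were used.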

Additional observations from a re-analysis of the deposited data

How the results depend on the processing

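Of 110 values of single genes under 11 alternatives, 93 moved by less than the software error and 17 by more, and 0 of the 2-fold calls changed direction. Part of the 93 was fixed in advance, so that count does not measure robustness. All probes of the set had curated accessions, so a restriction to these repeated every value. The 6 genes with 1 probe could not change under another probe rule. Some scalings by 1 factor per array moved all genes by only 0.04, -0.02 or -0.11. Scaling to spike-in controls (8 of 10 usable) moved the median of all genes by 0.40 and put 69% of 2-fold calls in the slow pool, against 42.7%. It gave medians of 0.41 for the core, 1.72 for the kinases and -0.48 for the phosphatases. The authors' table moved the median of all genes by -0.11. Normexp followed by quantile normalization gave a kinase median of 0.85 and a regulators minus core gap of 0.10, and normexp followed by 75th percentile scaling gave 0.88 and -0.014. Without Pdk3, an alternative added after seeing the data, the gap was -0.27. Taking the median over measured probes or the mean over all probes gave -0.16 for the phosphatases and 0.99 for the gap under both, with Pdp2 itself at 0.78. The count past 2-fold was 4, and 3 under spike-in scaling (without Pdp1) and under both normexp settings (without Pdk3). Under a 3-fold rule it was 1. Matching probes by a printed gene symbol was not run, because the files used here hold no such column, and normexp ran on median spot intensities. With 1 array per group no array could be left out. No paired analysis was possible because each group has 1 sample. Signal over background limited Pdk3 most. Where no cause is given above, the cause was not tested.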

Other observations

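Values of the fuel-handling genes in the lists that the text has not given so far are set out here. Cpt1b, the muscle carnitine palmitoyltransferase, read 4375 in the fast pool against 11108 in the slow pool, a log2 difference of 1.24, whereas its liver-type relative Cpt1a was lower in the slow pool. Acadl, the long-chain acyl-CoA dehydrogenase, stood at a log2 difference of 1.56, Slc25a20, the carnitine-acylcarnitine carrier, at 1.43 and Fabp3, the fatty acid binding protein of muscle and heart, at 1.07. Each of these 4 was past 2-fold in the slow pool, although Fabp3 was at 0.86 at its lowest over the 8 alternatives. Ucp3, a mitochondrial carrier of muscle, was at 0.43 and Plin2, a lipid droplet coat protein, at 0.70, so these targets were within 2-fold.

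Among the factors, Ppargc1a, the coactivator of mitochondrial genes, read 4161 and 2739, a log2 difference of -0.70, and Rxra, the partner receptor of PPARs, read 12352 and 7359, at -0.85. Both had lower signals in the slow pool, within 2-fold, and stayed below 0 in all 8 alternatives. Foxo1 was at -0.23 and Hif1a at 0.07. Lipt1, a lipoyltransferase, read 75.82 and 159.3, a log2 difference of 0.97. Bckdhb and Bckdha, subunits of branched-chain keto acid dehydrogenase, stood at 0.69 and 0.47, opposite in sign to their kinase Bckdk in the main scaling and in all 8 alternatives, while a further subunit, Dbt, at -0.46, had the sign of Bckdk throughout. The genes named in these paragraphs were chosen after their values were seen.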
